A study of Caenorhabditis elegans with 6 samples.

Results

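The genes described here are *C. elegans* genes named for, or linked to, the making and function of sperm. They were chosen by symbol, as every numbered *spe* (spermatogenesis defective), *nspd* and *smz* gene with *fer-1*, *gsp-3*, *gsp-4*, *trp-3*, *try-5*, *snf-10* and *swm-1*. No cutoff on their values was used, but earlier results of these data were known when they were chosen. The array carried 79 probes for 52 of these genes, out of 43603 probes for 24747 genes in all, and 48 of them (68 probes) could be measured on every array. RNA came from whole N2 (Bristol, wild-type) hermaphrodites kept at 20 °C on UV-irradiated *E. coli* OP50, which were left untreated (control, 3 arrays) or given pRJ-Fr.5 (3 arrays), fraction 5 of protease-treated royal jelly. Treatment ran for 24 h from L4, the final larva before the adult. The dose of pRJ-Fr.5 is 25 µg/ml in the study's methods and 25 mg/ml in the sample labels. Each sample was RNA from many pooled worms on its own one-color array, and nothing states that the samples of a group were separate cultures, so the p-values measure the spread between these samples.

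A hermaphrodite makes its sperm around the L4 stage, then switches to oocytes for the rest of its life and stores the sperm in the spermatheca. Spermatocytes pack major sperm protein (MSP) into fibrous bodies attached to membranous organelles (FB-MO), and most sperm proteins are made from messages written before the meiotic divisions end. Spermatids then become motile in sperm activation, in which the organelles fuse with the cell surface and a pseudopod grows out, and a last set of surface and secreted proteins lets the sperm engage the oocyte. Mutants of the *spe* and *fer* genes make sperm that stall at one of these steps, while other tissues of the worm are mostly unaffected.

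Control replicate 3 stood apart from the other arrays. On this array 27729 of the 43603 probes were well above background, against 32820 to 34549 on the other 5, and its negative control spots had an SD of 5.42 intensity units, where the others had 1.23 to 1.67. It lay on slide 2 with pRJ-Fr.5 replicate 3, and the other 4 arrays lay on slide 1. It alone kept 8 member probes out of the tests, and the overall count of genes called lower and their median are therefore also given without it.

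Spermatogenesis genes were lower with pRJ-Fr.5 as a group. Of the 48 measured genes, 39 were lower and 0 were higher at an adjusted p of 0.05 over all 16060 genes tested (limma), where 19.1% of all genes were called lower and 10.7% higher. The median log2 fold change was -0.57, against 0.03 for all genes, and the middle 50% of the genes lay between -0.64 and -0.43, against -0.21 and 0.17 for all genes. For the 39 called genes the changes ran from -0.86 to -0.30, and the median gene was at 66.8% of its control signal, or 1.50-fold lower. In these whole worms, fewer sperm and spermatocytes and less RNA in each of them cannot be told apart.

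Most changes were under 1.8-fold. A log2 fold change of -0.5 or beyond, with an adjusted p under 0.05, was found for 32 genes, against 12.8% of all genes, while only 3 genes, *spe-38* and *spe-49* among them, reached both 1.8-fold and an unadjusted p of 0.05, against 2.17% of all genes. A negative change was found for 44 of the 48 genes, against 45.6% of all genes. Every pRJ-Fr.5 value was under every control value for 41 genes, against 25.2% of all genes, and over every control value for 1 gene, *spe-39*, against 24.6%. Without control replicate 3, 40 of 51 measured genes were called lower, with a median of -0.55. In that fit 13.03% of all 18502 genes tested were called lower, and their median was 0.048.

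The decrease was seen on each pRJ-Fr.5 array but was not equally deep. Measured from the mean of the controls, the median gene was at 0.00, -0.04 and 0.05 on control replicates 1 to 3 and at -0.46, -0.57 and -0.68 on pRJ-Fr.5 replicates 1 to 3. The lowest value of a gene was on pRJ-Fr.5 replicate 3 in 37 of 48 genes, on replicate 2 in 8 and on replicate 1 in 3. Within slide 1 the difference was negative for 44 of the 48 genes, with a median of -0.50. Within slide 2, with 1 array per group and no test, it was negative for 47 genes, with a median of -0.72. Of all 16060 genes, 7050 had a negative difference within slide 1 and 8606 within slide 2, with medians of 0.04 and -0.03. Depth of the decrease and slide moved together here, and the part of the slide was not tested.

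**Figure D1:**
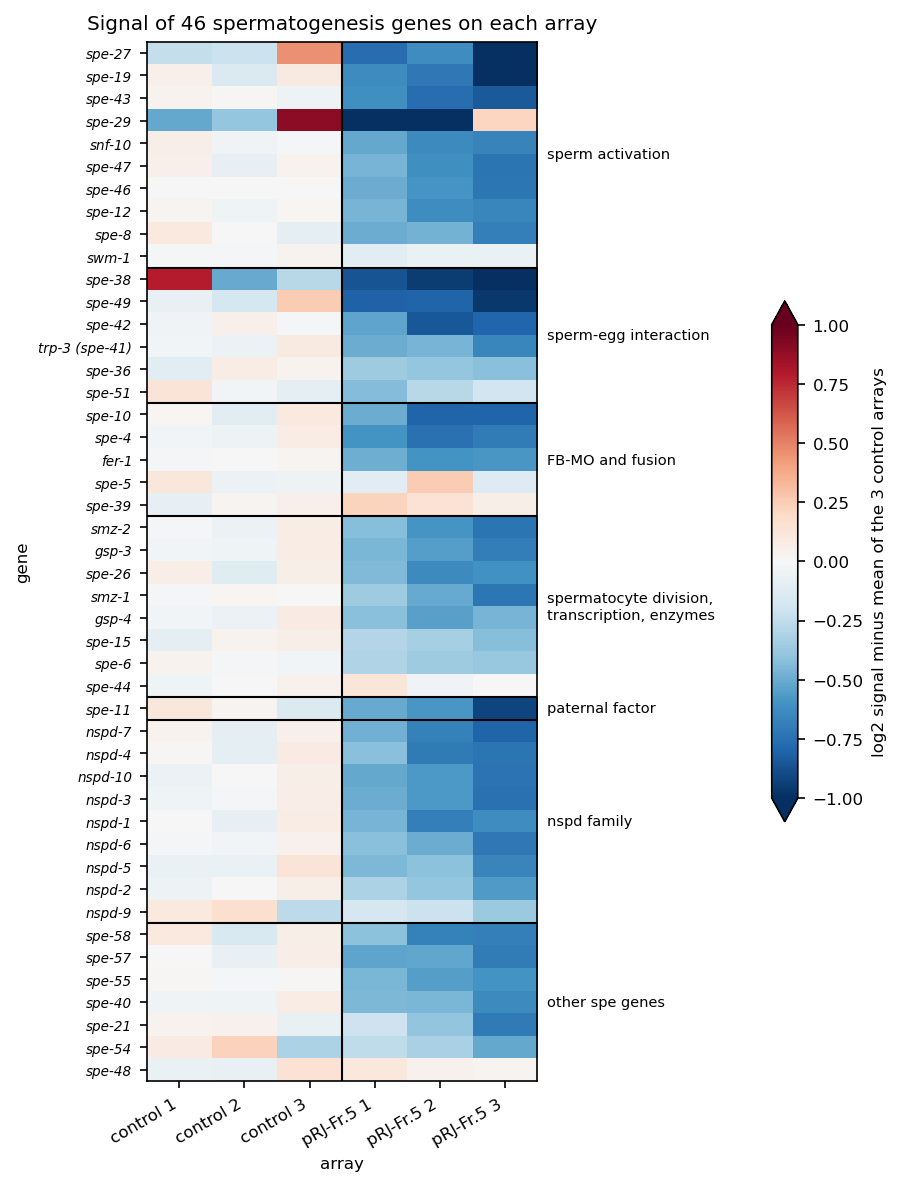
Signal of 46 of the 48 measured genes (rows, grouped by role) on the 6 arrays (columns), as log2 signal minus the mean of the 3 control arrays, with blue for lower and red for higher and the color scale ending at 1 in both directions. Most rows are blue on all 3 pRJ-Fr.5 arrays and darkest on replicate 3, while the rows of *spe-5*, *spe-39*, *spe-44*, *spe-48* and *swm-1* stay pale.

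Sperm activation genes were lower, with 8 of 10 measured genes called and a median of -0.61. Signals are given below as log2 of the signal of a gene relative to the 75th percentile of its array, for replicates 1, 2 and 3 in turn, and each log2 fold change is given with its SE. The *spe-8* group signals inside the hermaphrodite's own spermatids, and its membrane protein SPE-19 read -4.07, -4.27 and -4.03 in the controls and -4.76, -4.84 and -5.14 with pRJ-Fr.5 (-0.79 ± 0.12, adjusted p = 0.00377). The groups were separated by more than their own spread, as they were for *spe-43*, another membrane protein of activation, which read -2.73, -2.76 and -2.82 in the controls and -3.38, -3.53 and -3.61 with pRJ-Fr.5 (-0.74 ± 0.076, adjusted p = 0.00203). For *spe-27*, a small soluble protein of the same pathway, the controls read -3.91, -3.90 and -3.22 and the pRJ-Fr.5 arrays -4.44, -4.30 and -4.68 (-0.79 ± 0.20, adjusted p = 0.0276). Its groups did not overlap either, but control replicate 3 was high, and the call was lost without pRJ-Fr.5 replicate 2 (adjusted p = 0.0533) or replicate 3 (adjusted p = 0.0728).

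The remaining activation genes of the spermatid changed by similar amounts. The tyrosine kinase gene *spe-8*, *spe-12*, *spe-46* and *spe-47* had log2 fold changes of -0.55, -0.58, -0.60 and -0.61, all called. In *spe-29*, a small membrane protein, the one measured probe read -5.67, -5.54 and -4.26 in the controls and -6.30, -6.15 and -4.94 with pRJ-Fr.5 (-0.64 ± 0.48, adjusted p = 0.34). Both arrays of slide 2 read high on this probe, so that the groups overlapped. The gene was called without control replicate 3, when more of its probes entered the mean (adjusted p = 0.0157), and with the slide as a block (adjusted p = 0.00357). The other 5 probes of *spe-29* were near background on 1 of the 2 arrays of slide 2. Those near background on control replicate 3 changed by -0.90 to -0.58 in the fit without that array. The remaining probe was near background on pRJ-Fr.5 replicate 3, and no change is given for it because all 3 arrays were measured only in the controls.

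A second route to activation answers to a protease from the male and has 3 genes here, of which 1 was called. The transporter gene *snf-10*, which acts in spermatids, read -1.83, -1.92 and -1.90 in the controls and -2.39, -2.52 and -2.55 with pRJ-Fr.5 (-0.61 ± 0.067, adjusted p = 0.00204), with no overlap. The gene *swm-1* encodes a secreted protease inhibitor that keeps sperm from being activated too early in males, and it read 0.67, 0.68 and 0.72 in the controls and 0.59, 0.63 and 0.63 with pRJ-Fr.5. Its log2 fold change of -0.08 ± 0.054 did not pass the test (adjusted p = 0.292, 95% interval -0.21 to 0.05), although its groups did not overlap. The protease itself, *try-5*, was not well above background on control replicate 3 and read between -6.65 and -5.57 on the other 5 arrays. Without that array its log2 fold change was -0.18 (adjusted p = 0.719).

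**Figure D2:**
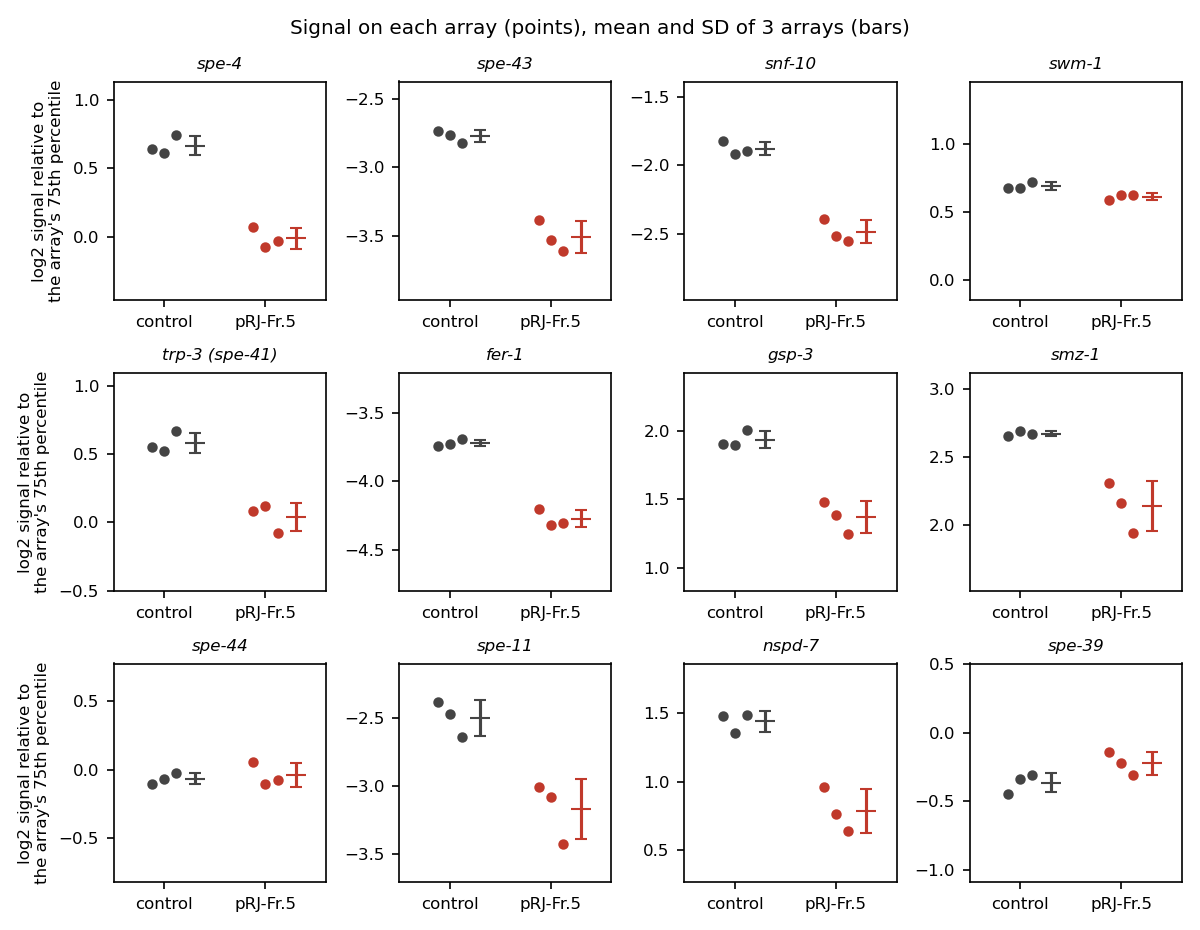
Log2 signal of 12 genes relative to the 75th percentile of the array, with a point for each array, the mean and SD of 3 arrays beside them and the same height of axis in every panel. The groups are well apart for *spe-4*, *spe-43*, *snf-10*, *trp-3*, *fer-1*, *gsp-3*, *smz-1*, *spe-11* and *nspd-7*, overlap for *spe-44*, and lie close together for *swm-1* and *spe-39*.

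Genes for the meeting of sperm and oocyte showed a median of -0.67, the lowest among the role groups with several genes, with 6 of 7 measured genes called. The pair *spe-42* and *spe-49* encodes related membrane proteins of the sperm, and *spe-49* read -4.75, -4.85 and -4.43 in the controls and -5.49, -5.48 and -5.64 with pRJ-Fr.5, at 55.1% of control (-0.86 ± 0.12, adjusted p = 0.00295). Its partner *spe-42* read -3.75, -3.67 and -3.73 in the controls and -4.24, -4.56 and -4.51 with pRJ-Fr.5 (-0.72 ± 0.094, adjusted p = 0.00243). In both genes every pRJ-Fr.5 array lay below every control array. The value of *spe-49* is the mean of 2 dim probes, with changes of -1.02 and -0.70. On the first of them control replicate 3 read -3.82, above the other controls at -4.73 and -4.87. The size of the change in *spe-49* is therefore uncertain. It ran from -1.02 to -0.36 over the 18 alternatives, although the gene was called in all of them. The membrane protein gene *spe-38* had the largest change of all, but its controls read -3.88, -5.17 and -4.94 and its pRJ-Fr.5 arrays -5.53, -5.62 and -5.69 (-0.95 ± 0.31, adjusted p = 0.0627). Control replicate 1 was far above the other controls, and without it the change was -0.55 and passed the test (adjusted p = 0.0182). Without control replicate 2 it was -1.20 (adjusted p = 0.0428).

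The calcium channel gene *trp-3*, also named *spe-41*, whose product moves to the sperm surface on activation, read 0.55, 0.52 and 0.67 in the controls and 0.08, 0.12 and -0.08 with pRJ-Fr.5 (-0.54 ± 0.077, adjusted p = 0.00317). The secreted protein gene *spe-36* changed by -0.39 and was called. For *spe-51*, which also encodes a secreted protein, the change of -0.30 was the smallest of those called (adjusted p = 0.0465), and the call was lost without control replicate 1, 2 or 3 (adjusted p = 0.128, 0.108 and 0.0694) and without pRJ-Fr.5 replicate 1 or 2 (adjusted p = 0.0889 and 0.120). The gene *spe-9*, which encodes an EGF-repeat protein of the sperm surface, was not in the fit because its probe was not well above background on control replicate 3. It read -2.26 and -2.40 on the other controls, -7.36 on control replicate 3, and -2.76, -2.54 and -2.82 with pRJ-Fr.5. Without control replicate 3 the change was -0.38 and did not pass the test (adjusted p = 0.0831).

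Genes of the FB-MO and its fusion had 4 of 6 measured genes called lower, with a median of -0.62. The palmitoyltransferase gene *spe-10* read -2.04, -2.18 and -1.96 in the controls and -2.56, -2.86 and -2.86 with pRJ-Fr.5 (-0.70 ± 0.11, adjusted p = 0.00376). The presenilin-family gene *spe-4* read 0.64, 0.61 and 0.75 in the controls and 0.07, -0.07 and -0.03 with pRJ-Fr.5 (-0.68 ± 0.069, adjusted p = 0.00203). The groups overlapped in neither of them. The ferlin gene *fer-1*, required for the organelles to fuse with the cell surface, read -3.74, -3.73 and -3.69 in the controls and -4.20, -4.32 and -4.30 with pRJ-Fr.5 (-0.56 ± 0.059, adjusted p = 0.00203).

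In contrast, *spe-5* and *spe-39* were not called. The gene *spe-5* encodes a subunit of the vacuolar proton pump and had a log2 fold change of 0.00 ± 0.12 (adjusted p = 0.981, 95% interval -0.28 to 0.29). The gene *spe-39* acts in vesicle traffic in many tissues, and read -0.45, -0.34 and -0.31 in the controls and -0.14, -0.22 and -0.31 with pRJ-Fr.5 (0.14 ± 0.071, adjusted p = 0.173, 95% interval -0.03 to 0.31). The pRJ-Fr.5 arrays of *spe-39* all read higher than the controls, by a margin that was small on slide 2. Whether these genes differ in their change from the other FB-MO genes was not tested. The probe of *spe-18*, which is needed for the FB-MO to form, was an outlier spot on control replicate 3. It read 2.94 on both other controls and 2.43, 2.14 and 2.39 with pRJ-Fr.5, and without control replicate 3 its change was -0.62 (adjusted p = 0.0229).

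**Figure D3:**
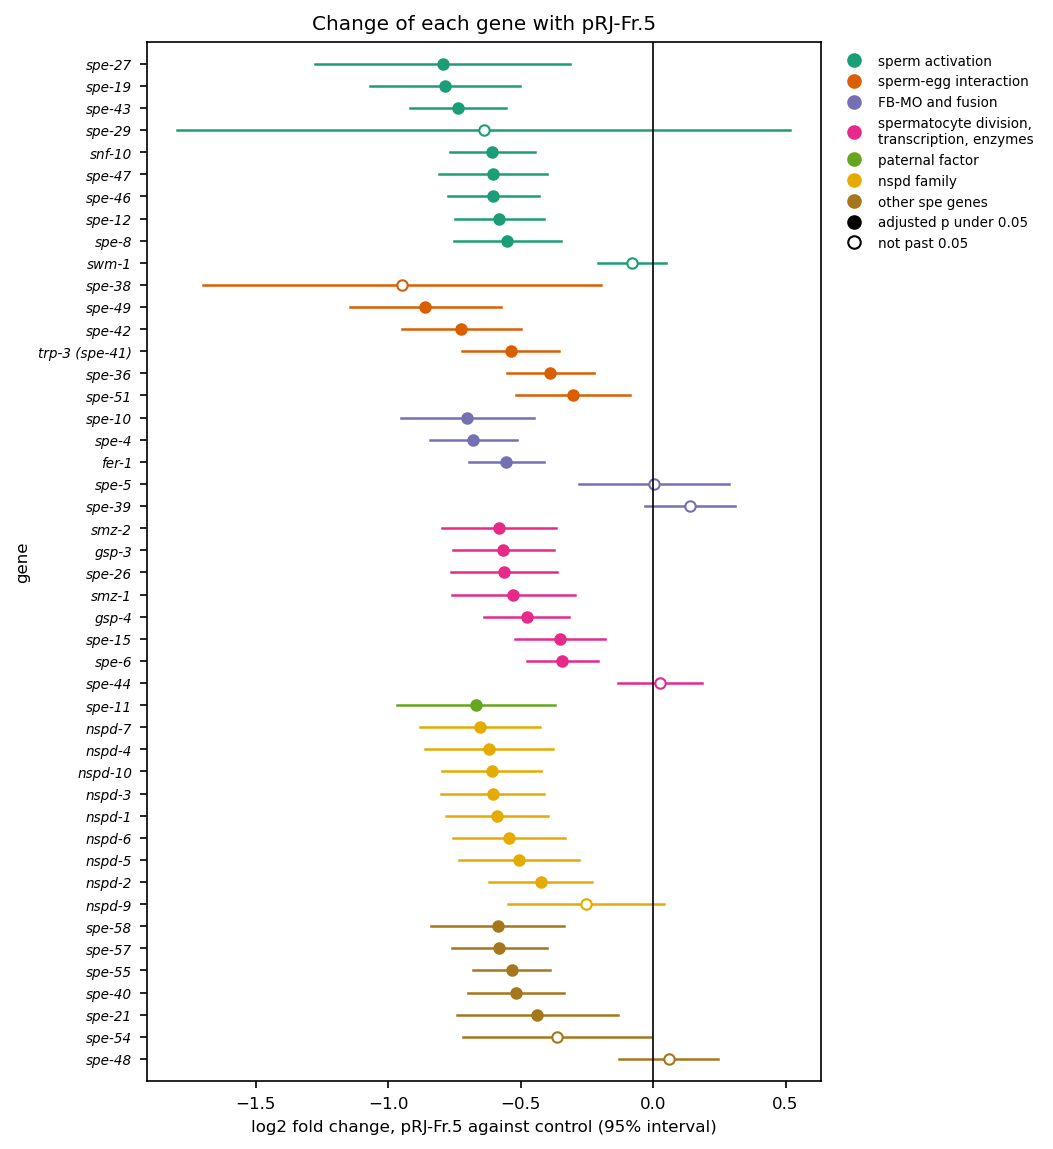
Log2 fold change of 46 of the 48 measured genes (pRJ-Fr.5 against control) with its 95% interval from limma, colored by role, with filled points for an adjusted p under 0.05 and open points for the others. The filled points lie between -0.86 and -0.30. The open points of *spe-5*, *spe-44*, *spe-48*, *spe-39* and *swm-1* lie near 0, with the widest interval among them for *spe-5* (-0.28 to 0.29). Those of *spe-29* and *spe-38* have still wider intervals.

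Genes of the spermatocyte and its divisions were lower in 7 of 8 cases, with a median of -0.50. The phosphatase genes *gsp-3* and *gsp-4* are nearly identical copies needed for meiosis and sperm motility. The gene *gsp-3* read 1.91, 1.90 and 2.01 in the controls and 1.48, 1.39 and 1.25 with pRJ-Fr.5 (-0.57 ± 0.079, adjusted p = 0.003), and *gsp-4* read 2.53, 2.50 and 2.64 in the controls and 2.14, 2.01 and 2.09 with pRJ-Fr.5 (-0.48 ± 0.067, adjusted p = 0.00305). Neither had overlapping groups, but a probe may take up RNA of the other copy, so the separate values are uncertain.

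The PDZ-domain genes *smz-1* and *smz-2* encode sperm proteins needed for the meiotic divisions and are also alike. For *smz-1* the controls read 2.65, 2.69 and 2.67 and the pRJ-Fr.5 arrays 2.31, 2.16 and 1.95 (-0.53 ± 0.097, adjusted p = 0.00805), and for *smz-2* they read 1.76, 1.71 and 1.84 and 1.34, 1.18 and 1.04 (-0.58 ± 0.09, adjusted p = 0.0041). The spread of both was wider with pRJ-Fr.5 than in the controls, with replicate 3 the lowest. The kelch-repeat gene *spe-26* read -3.18, -3.37 and -3.20 in the controls and -3.69, -3.89 and -3.86 with pRJ-Fr.5 (-0.56 ± 0.084, adjusted p = 0.00362). The myosin VI gene *spe-15* and the casein kinase gene *spe-6* changed less, by -0.35 and -0.34, and both were called. The call of *spe-15* was lost without control replicate 2 (adjusted p = 0.0542) or 3 (adjusted p = 0.0522).

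The transcription factor gene *spe-44*, which switches on sperm genes early in the spermatocyte, was the one gene of this role group that was not called. It read -0.11, -0.07 and -0.03 in the controls and 0.06, -0.10 and -0.07 with pRJ-Fr.5, and the groups overlapped. Its log2 fold change was 0.03 ± 0.066 (adjusted p = 0.769, 95% interval -0.13 to 0.19), and it turned to -0.021 without pRJ-Fr.5 replicate 1. The difference of *spe-44* from the other genes was not tested.

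The paternal gene *spe-11* encodes a protein that the sperm brings into the egg and that the first steps of the embryo need. It read -2.39, -2.47 and -2.64 in the controls and -3.01, -3.08 and -3.42 with pRJ-Fr.5 (-0.67 ± 0.13, adjusted p = 0.00878). The 2 groups did not overlap, and pRJ-Fr.5 replicate 3 was the lowest array.

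The *nspd* genes form a family of small nematode-specific peptides made in sperm, and 8 of 9 measured members were lower, with a median of -0.59. Members are similar to each other in sequence, so that a probe may report more than one of them. The gene *nspd-7* read 1.48, 1.35 and 1.49 in the controls and 0.96, 0.76 and 0.64 with pRJ-Fr.5 (-0.65 ± 0.095, adjusted p = 0.00338). For *nspd-4* the controls read 3.10, 3.00 and 3.17 and the pRJ-Fr.5 arrays 2.67, 2.38 and 2.36 (-0.62 ± 0.10, adjusted p = 0.0051). The values of *nspd-10* were 0.42, 0.48 and 0.53 in the controls and -0.04, -0.10 and -0.27 with pRJ-Fr.5 (-0.61 ± 0.078, adjusted p = 0.00236). All 3 genes had groups that did not overlap. The remaining called members, *nspd-1*, *nspd-2*, *nspd-3*, *nspd-5* and *nspd-6*, changed by -0.61 to -0.42. For *nspd-9* the controls read -0.52, -0.47 and -0.88, with replicate 3 among the pRJ-Fr.5 values of -0.79, -0.84 and -0.998 (-0.25 ± 0.12, adjusted p = 0.161), and without control replicate 3 the change was -0.38 and passed the test (adjusted p = 0.0390). The gene *nspd-8* was not well above background on any array.

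Among the other numbered *spe* genes, 5 of 7 were lower, with a median of -0.52. The gene *spe-58* read -0.98, -1.22 and -1.02 in the controls and -1.48, -1.75 and -1.75 with pRJ-Fr.5 (-0.59 ± 0.11, adjusted p = 0.00723). For *spe-57* the controls read -0.36, -0.44 and -0.29 and the pRJ-Fr.5 arrays -0.89, -0.88 and -1.06 (-0.58 ± 0.075, adjusted p = 0.00243). The values of *spe-55* were 0.60, 0.57 and 0.61 in the controls and 0.13, 0.05 and -0.0047 with pRJ-Fr.5 (-0.53 ± 0.061, adjusted p = 0.00213). These 3 genes had groups that did not overlap, and *spe-40* was also called, with a change of -0.52.

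The call of *spe-21*, with a change of -0.44 (adjusted p = 0.0428), was lost without control replicate 1, 2 or 3 (adjusted p = 0.118, 0.121 and 0.0902) and without pRJ-Fr.5 replicate 2 or 3 (adjusted p = 0.105 and 0.0501). In *spe-54* control replicate 3 read -0.23, below the other controls, and the change of -0.36 ± 0.15 did not pass the test (adjusted p = 0.108). Without that array it was -0.52 and passed (adjusted p = 0.0287). The gene *spe-48* had a change of 0.06 ± 0.078 (adjusted p = 0.581, 95% interval -0.13 to 0.25).

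Probes of one gene were alike in direction. Of the 68 measured probes, 52 were called lower and 0 higher over all 27518 probes, where 16.2% were called lower and 8.78% higher. In 10 genes with more than 1 measured probe, all probes of 9 were lower on average, and in 6 genes every probe was called. The 3 probes of *gsp-3* had control signals from -0.01 to 2.97 and changes of -0.64 to -0.53, so that a wide range of brightness gave close values. In *spe-15* the 6 probes changed by -0.50 to -0.26 and 5 were called, and in *spe-8* the 4 probes changed by -0.62 to -0.46 and 3 were called. The 3 probes of *spe-39* all read higher, by 0.12 to 0.16, and none was called, as with the 3 measured probes of *swm-1*, which changed by -0.09 to -0.07. A further probe of *swm-1*, at -1.17 and -1.24 on controls 1 and 2 but -5.93 on control replicate 3, was left out.

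**Figure D4:**
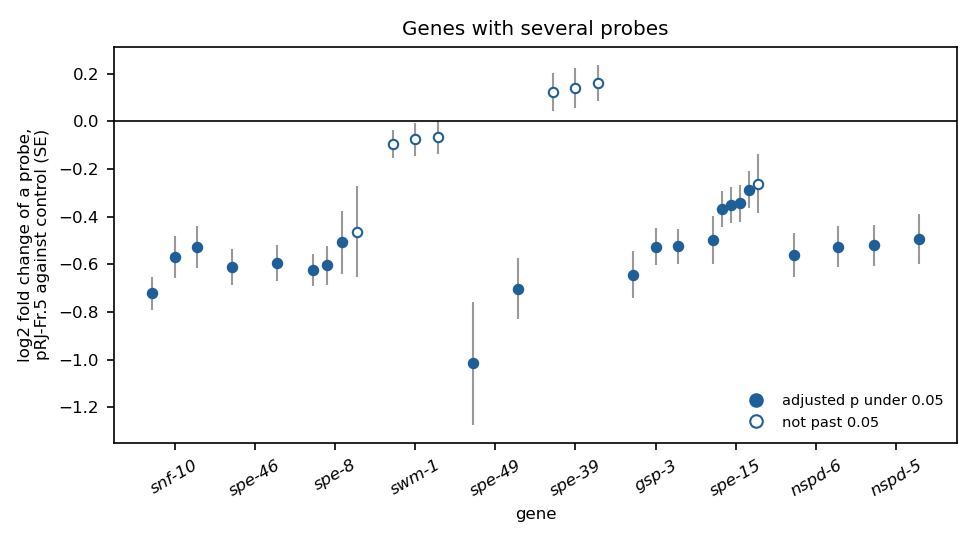
Log2 fold change of each measured probe with its SE (pRJ-Fr.5 against control) for the 10 genes with more than 1 such probe, with filled points for an adjusted p under 0.05 over all probes. Probes of a gene cluster together, below 0 in 9 genes and above 0 in *spe-39*.

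Brightness and size of change were loosely related over the 48 genes, whose control means ran from -5.16 to 4.30. Spearman's rho was 0.31 and Pearson's r 0.27 between the control mean and the log2 fold change, so that dimmer genes tended to have the deeper changes. These points share the same 6 arrays and the brightness of a probe also depends on its sequence, and the relation is given as a description only.

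By their place in the genome, 20 of the 52 genes are on chromosome I and 16 on chromosome IV, with 8 on V, 4 on II, 4 on III and 0 on the X chromosome (RefSeq annotation), which holds 13.3% of the named genes on the array. Genes called lower were found on each of the 5 autosomes. They were 14 of 18 measured genes on chromosome I, 3 of 3 on II, 3 of 4 on III, 14 of 16 on IV and 5 of 7 on V. Of all measured genes on these chromosomes, in the same order, 19.7%, 21.3%, 15.5%, 23.6% and 19.8% were called lower.

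Other genes of sperm were lower as well, while genes of the oocyte were not. The MSP genes, which encode the cytoskeletal protein of the pseudopod and the signal that sperm send to oocytes, had 16 of 25 measured members called lower and 0 higher, with a median of -0.32 that kept its sign in all 18 alternatives (-0.37 to -0.22). The count was less stable than the median. It was 10 of 25 without control replicate 1 or pRJ-Fr.5 replicate 2, 10 of 27 without control replicate 3 and 6 of 27 within slide 1. By the methods' t-test, with no filter on dim probes and with the replicate block it was also 10 of 25. In these alternatives 8.59% (no filter on dim probes) to 15.4% (replicate block) of all genes were called lower, with 11.9% within slide 1. The MSP genes are near-identical copies, and their separate values are uncertain. In a list of further sperm genes (*ssp*, *ssq*, *sss* and *msd* families, sperm chromatin genes and regulators), 25 of 31 were called lower and 1 higher, with a median of -0.54. Over the 18 alternatives, 18 to 27 were called lower, with medians of -0.57 to -0.48, where 8.59% to 20.9% of all genes were called lower. Among them *alg-3* and *alg-4*, Argonautes of the spermatocyte, changed by -0.56 and -0.59, *comp-1*, a gene of sperm competition, by -0.61, and *htas-1*, a sperm histone, by -0.54, all called. The call of *alg-4* was lost in 2 of the 18 alternatives. In the same list *zipt-7.1* had a change of 0.17, which was not called.

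The genes that turn the germ line toward sperm were not among those called lower. The gene *fog-1* was higher, at -1.52, -1.53 and -1.53 in the controls and -1.13, -1.25 and -1.38 with pRJ-Fr.5 (0.27 ± 0.077, adjusted p = 0.0397), a call that was lost in 11 of 18 alternatives. Its partner *fog-3* had a change of -0.11 and *cpb-1*, an RNA-binding protein of spermatocytes, of 0.14, and neither was called.

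Of 17 measured oocyte and eggshell genes, 0 were called lower and 3 higher (*mbk-2*, *egg-2* and *lin-41*), with a median of 0.20. Over all genes, 10.7% were called higher. The median of the oocyte and eggshell genes was 0.21 within slide 1 and 0.01 within slide 2, where 7 of the 17 had a negative difference. Of 10 germ cell genes 0 were called in either direction, with a median of 0.07. Their median was 0.14 within slide 1 and -0.02 within slide 2, where 7 of the 10 had a negative difference. The 3 higher calls of *mbk-2*, *egg-2* and *lin-41* were lost in 13, 11 and 5 of the 18 alternatives. The summed signal of the oocyte and eggshell genes was 7.78 to 7.97 on the log2 scale in the controls and 7.94 to 7.98 with pRJ-Fr.5, and that of the MSP genes was 8.71 to 8.84 in the controls and 8.46 to 8.57 with pRJ-Fr.5. Among 5 markers of male tissue, *cwp-1* and *cwp-5* were not well above background on any array, *lov-1* was on 2 control arrays, *pkd-2* on 1 control array, and *cwp-4* on all 6 with a change of 0.16 that was not called. Among 12 markers of intestine, muscle, epidermis and neurons, *vit-6* was called higher and *col-7* lower, by 0.21 and -0.23. The part of sex, of stage and of germ line size in the values of the sperm genes was not tested.

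**Figure D5:**
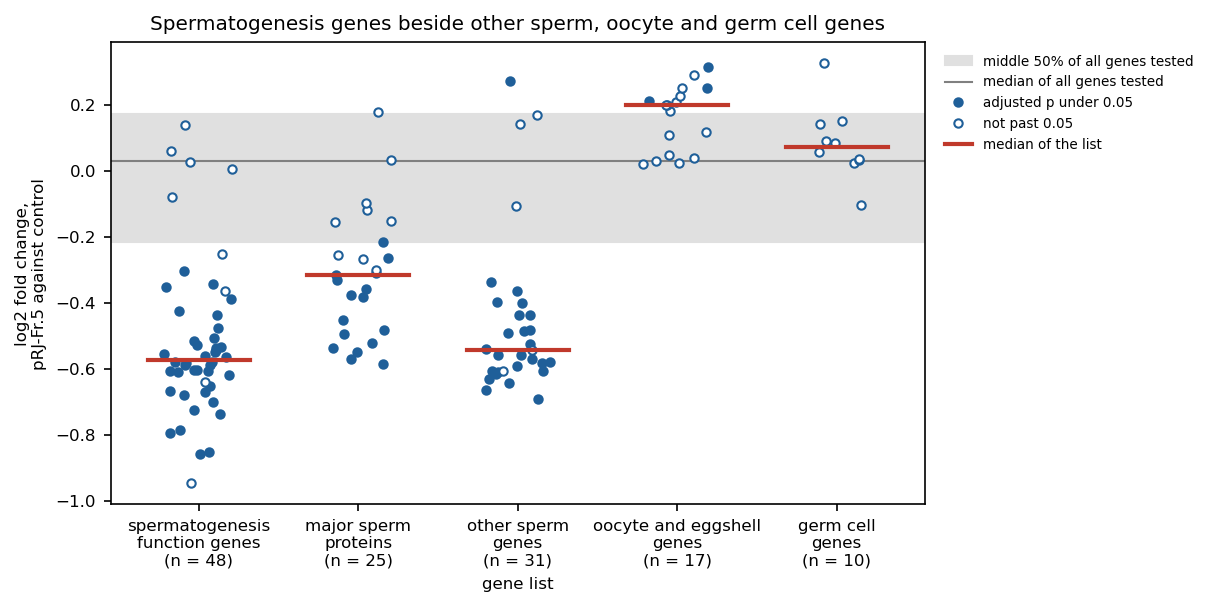
Log2 fold change (pRJ-Fr.5 against control) of each measured gene in 5 lists, with filled points for an adjusted p under 0.05, a red line for the median of a list, and the median and middle 50% of all 16060 genes in gray. The 3 lists of sperm genes have medians of -0.57, -0.32 and -0.54, and the oocyte and germ cell lists have medians of 0.20 and 0.07.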

How the data were processed

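Gene expression was measured on 6 one-color Agilent arrays, 3 per group. For each array, the authors deposited intensities with quality flags, written by Agilent Feature Extraction 10.7.1.1 after background subtraction within the array, with no normalization between arrays. The authors also deposited a table that holds a linear ratio, the intensity of a probe over the 75th percentile of its array, which was recomputed from the intensities within 0.0005 for the 68 kept probes of the members. The annotation of the array grid rests on another genome build than the RefSeq table (WBcel235), so no coordinates are given, and the sequences of the probes and genes were not used here.

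Each processed signal was put on the log2 scale relative to the 75th percentile of its own array. Control and outlier spots were left out of the tests, and probes entered the tests if flagged positive, significant and well above background on each of the 6 arrays (27518 of 43603 probes, 16060 of 24747 genes). A gene was the mean of its kept probes. Symbols came from the sequence names, for 34865 probes (80.0%). The 2 groups were compared by limma 3.58.1 (R 4.3.3), two-sided, with Benjamini-Hochberg adjustment over all genes and a threshold of 0.05. The scripts were tested on simulated data. With 3 arrays in each group the exact permutation test has a smallest p of 0.1 and made no calls. Groups of 3 arrays limit the precision, and the closest pair of arrays of a group differed by a median of 0.08 (log2), and no 2 arrays were copies. Saturated spots were absent among the members.

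Members, role groups and other gene lists were chosen with earlier results of these data known. Because more than 30 genes passed the threshold, array values are given for the 3 largest changes in each role group and for *trp-3*, *spe-9*, *fer-1*, *gsp-3*, *gsp-4*, *spe-44*, *smz-1*, *smz-2*, *try-5*, *snf-10*, *swm-1* and *spe-11*. Of the 48 measured genes, 2 are counted but not reported here by name. Array values of *spe-29*, *spe-39*, *nspd-9*, *spe-18* and *fog-1*, and the other genes named from the lists, were chosen after their values were seen. Alternatives were the t-test of the study's methods, normexp background correction of the median signals (offset 50), quantile normalization, 2 other scalings, 2 other filters on dim probes, the deposited table, the replicate number or slide as a block, slide 1 alone, the brightest probe of a gene, and each array left out in turn.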

Additional observations from a re-analysis of the deposited data

How the results depend on the processing

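The count of spermatogenesis genes called lower was 33 to 41 over all 18 alternatives, against 39, and none of these genes was called higher in any of them. It was 33 of 51 within slide 1, 41 of 48 with the slide as a block, 36 by the methods' t-test with Benjamini-Hochberg adjustment and 36 to 40 with 1 array left out. Their median log2 fold change was -0.62 to -0.53 with 1 array left out, and moved by more than the spread between arrays to -0.46 with the normexp correction and to -0.50 within slide 1. Of the 39 called genes, 29 passed the threshold in every alternative, and in 41 of 702 values a call was lost, while 0 changed sign. The calls lost were 13 for *spe-51*, 11 for *spe-21*, 6 for *spe-27*, 5 for *spe-15* and 1 each for *nspd-2*, *nspd-4*, *spe-10*, *spe-26*, *spe-36* and *spe-58*, all 6 of the last within slide 1. Of the genes not called, *spe-29* passed in 6 alternatives, *spe-38* and *spe-54* in 4 each and *nspd-9* in 2.

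Signs changed in 3 genes that were not called. The change of *spe-5* was -0.032 with the normexp correction, -0.025 when scaled to the 75th percentile of kept probes, and -0.12 (without pRJ-Fr.5 replicate 2) to 0.071 (without pRJ-Fr.5 replicate 3) with 1 array left out, below 0 also without control replicates 2 and 3. That of *spe-44* was -0.0017 when scaled to the 75th percentile of kept probes and -0.021 (without pRJ-Fr.5 replicate 1) to 0.059 (without pRJ-Fr.5 replicate 2) with 1 array left out. The change of *swm-1* was 0.32 with detection asked in only 1 group and 0.32 with no filter on dim probes, both of which let in the probe that was near background on control replicate 3.

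Over all genes, 4789 were called, against 2676 with no filter on dim probes and 2804 within slide 1. Leaving out 1 array gave 2750 (without pRJ-Fr.5 replicate 2) to 5511 (without pRJ-Fr.5 replicate 1). It was 3096 without control replicate 1 and 3026 without control replicate 2. The causes of these differences were not tested. The fits within slide 1 and with 1 array left out also had fewer arrays.

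Same-numbered arrays did not deviate together (correlations of -0.24, 0.05 and -0.03), so the replicate numbers were not taken as pairs. With the replicate block, 37 spermatogenesis genes were called lower, 36 of them shared with the 39. In that fit 3199 genes were called in all, and 15.4% of all genes were called lower. Of the 79 probes of these genes, 11 could not be measured on every array, 1 of them (*spe-18*) for an outlier spot and the others for a signal near background.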
